A study of Mus musculus with 24 samples.

Results

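The nuclear-encoded subunits of the mitochondrial respiratory chain and of ATP synthase were followed in mouse calf muscle, as 1 set of genes. Members were taken by gene symbol: those that start with Ndufa, Ndufb, Ndufc, Ndufs, Ndufv, Uqcr, Cox4, Cox5, Cox6, Cox7, Cox8 or Atp5, without the assembly factors named Ndufaf, and Sdha, Sdhb, Sdhc, Sdhd and Cyc1. The array annotation held 80 such symbols on 123 probes, and 76 symbols had a probe with a detection p-value under 0.05 on at least 6 of the 24 arrays. These 76, of 14984 genes tested in all, were 34 subunits of complex I, 3 of complex II, 8 of complex III, 15 of complex IV and 16 of ATP synthase (complex V). Ndufa4 was counted with complex IV, to which the protein is now assigned, and Ndufs5-ps carries the name of a pseudogene of Ndufs5.

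Transgenic mice (TG), which carry an α7BX2 integrin transgene, were compared with wild-type mice (WT), and each genotype had a group that ran downhill and a group that stayed at rest. All mice were female and 5 weeks old, and each of the 4 groups (TG run, TG rest, WT run, WT rest) had 6 arrays, 1 per labelled replicate. The run was a single bout on a treadmill at a downward slope of 20 degrees, 40 min at 17 m/min after a 2 min rise from 10 m/min, and the gastrocnemius-soleus complex was taken 3 h later. The study asked how this laminin receptor alters transcription in muscle after eccentric exercise. Which promoter drives the transgene is not stated in the labels, and the Itga7 probe does not check the genotype labels. Its log2 signal was 8.86 ± 0.612 in TG run, 9.09 ± 0.548 in TG rest, 8.86 ± 0.652 in WT run and 8.87 ± 0.415 in WT rest (mean ± SD, n = 6 each), with a mean difference TG minus WT of 0.11 (SE 0.218, limma adjusted p = 1).

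The respiratory chain sits in the inner mitochondrial membrane. Complexes I and II pass electrons from NADH and succinate to ubiquinone, complex III passes them to cytochrome c, and complex IV reduces oxygen; complexes I, III and IV pump protons, and ATP synthase uses the gradient to make ATP. Most subunits are encoded in the nucleus, and a few core ones in mitochondrial DNA. Muscle fibres that rely on oxidative metabolism hold more mitochondria than fast glycolytic fibres, and complex IV has subunits with a separate heart and muscle form. NRF1, ETS factors such as GABPA, YY1 and the oestrogen-related receptors are known regulators of these genes, with PGC-1α (Ppargc1a) as their coactivator.

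Promoter windows from RefSeq (GRCm38.p6, from 250 bases before to 50 bases after the annotated start) were at hand for 63 of the 76 members, in 68 windows. They are shown for 4 members on which the results below turn: Cox6a1 and Cox7a2l, whose signal had the lowest correlations with the other members over the arrays, and Cox7a1 and Ndufa1, which had the highest. Capitals mark matches, on either strand, to the motif letters searched. These letters were CCGGAAG for ETS, AAGGTCA for ERR, GGGCGG for SP1 and TATAAA for a TATA box, with the NRF1 and YY1 consensus letters beside them, and overlap between motifs was allowed.
Cox6a1 (chr5:115348909-115349208, minus strand): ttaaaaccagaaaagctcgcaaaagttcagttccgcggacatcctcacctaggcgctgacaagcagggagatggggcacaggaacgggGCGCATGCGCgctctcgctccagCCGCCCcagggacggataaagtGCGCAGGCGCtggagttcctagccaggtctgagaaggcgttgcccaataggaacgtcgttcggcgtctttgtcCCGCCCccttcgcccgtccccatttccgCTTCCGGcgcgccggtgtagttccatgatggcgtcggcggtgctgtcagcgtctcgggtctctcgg
Cox7a2l (chr17:83514284-83514583, minus strand): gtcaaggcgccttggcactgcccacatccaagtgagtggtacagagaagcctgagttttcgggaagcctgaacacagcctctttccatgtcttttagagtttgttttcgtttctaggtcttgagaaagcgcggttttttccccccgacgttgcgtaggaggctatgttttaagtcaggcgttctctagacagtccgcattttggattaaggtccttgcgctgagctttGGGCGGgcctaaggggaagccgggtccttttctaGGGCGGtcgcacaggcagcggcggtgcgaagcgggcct
Cox7a1 (chr7:30183921-30184220, plus strand): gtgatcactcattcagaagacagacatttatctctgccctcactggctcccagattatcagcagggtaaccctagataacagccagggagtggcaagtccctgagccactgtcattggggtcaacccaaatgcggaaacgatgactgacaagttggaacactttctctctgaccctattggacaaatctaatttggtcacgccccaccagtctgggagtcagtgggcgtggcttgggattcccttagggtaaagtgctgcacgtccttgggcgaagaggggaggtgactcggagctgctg
Ndufa1 (chrX:37191189-37191488, minus strand): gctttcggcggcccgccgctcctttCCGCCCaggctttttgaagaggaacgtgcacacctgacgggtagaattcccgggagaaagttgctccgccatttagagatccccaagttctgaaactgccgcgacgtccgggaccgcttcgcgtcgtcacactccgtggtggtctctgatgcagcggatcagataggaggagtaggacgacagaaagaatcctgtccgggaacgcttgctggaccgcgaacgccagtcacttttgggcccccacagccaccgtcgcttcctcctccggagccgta
In the Cox6a1 window, read 5′ to 3′, NRF1, SP1, NRF1, SP1 and ETS letters occurred in this order. Cox7a2l had SP1 letters at 2 places and Ndufa1 at 1, while the Cox7a1 window held none of the motifs searched, which says only that these letters are not in it. Over all member windows, NRF1 letters occurred in 16 of 68 (23.5%), against 4.6% of the 32851 windows in the table. The ETS letters also occurred in 23.5% of member windows, against 8.86% of all. For YY1 the shares were 7.35% of member windows and 0.852% of all windows, and for ERR they were 10.3% and 4.72%. SP1 letters (42.6% against 35.7%) and TATA letters (11.8% against 13.6%) were closer to the share over all windows. A match is a description of letters, not a bound site.

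Of the 76 members, 74 were detected on all 24 arrays. Uqcrfs1, the Rieske iron-sulphur protein of complex III, was detected on 8 arrays (2 TG run, 3 TG rest, 2 WT run and 1 WT rest) and Cox6b2, a testis form of a complex IV subunit, on 13 (3, 4, 4 and 2 in the same order). Their values lie near background. The 4 symbols that did not pass the filter were Ndufs1, Sdha, Cox7b2 and Cox8c, each detected on 0 of 24 arrays, with smallest detection p-values of 0.19, 0.149, 0.263 and 0.125. Ndufs1, the largest core subunit of complex I, and Sdha, the catalytic flavoprotein of complex II, therefore get no fold. Each had a single probe, and an undetected probe does not show that its transcript is absent. The same limit applies to the low signal of Uqcrfs1. Cox8a and Ndufa4l2 were not analysed here.

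The arrays held muscle, with 11 of the 12 skeletal muscle genes listed (such as Ckm, Acta1 and Myh4) kept, all of them on all 24 arrays, and list means of 14.7 to 14.9 on every array. Median signal per array ranged from 105.2 to 137.9, 40.2% to 46.3% of probes were detected, and pairs of arrays correlated at 0.909 to 0.991. Some arrays stood apart in genes of other cells. Of the 15 lymphocyte markers 10 were kept, and their mean was between 7.40 and 9.90 on 11 arrays (4 TG run, 2 TG rest, 2 WT run, 3 WT rest) and between 5.07 and 5.72 on the other 13. The mean of the 13 slow fibre genes (such as Myh7 and Tnni1) ranged from 10.3 to 12.5 over the arrays, with 10 arrays (2 TG run, 3 TG rest, 3 WT run, 2 WT rest) at or above 11.9 and 14 at or below 11.6. Since whole muscle was measured, fewer cells of a type and less RNA per cell cannot be told apart in any value below.

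In transgenic muscle the subunit genes had slightly lower signal after the run, in nearly all members and in every complex. The mean of the 76 overlapped between TG run (12.53 to 12.84) and TG rest (12.72 to 12.88). The SD of this mean between arrays within groups was 0.0923. The log2 difference TG run minus TG rest was below 0 for 69 of 76 members with a median of -0.096, against a median of -0.017 and 53.4% below 0 over all 14984 genes. None of the 76 was called (0 of 76; 0.00667% of all genes were) at a limma adjusted p under 0.05, two-sided. At an unadjusted p under 0.05 there were 4 members, 5.26%, against 4.76% of all genes. In wild-type muscle the median for WT run minus WT rest was -0.021, with 48 of 76 below 0 (0.0055 and 48.2% over all genes). There, 0 members were called (0% of all genes), and 0 passed an unadjusted p under 0.05, against 2.15% of all genes. The direction in wild type was not stable: with array weights the median was 0.003, and without WT run replicate 9 it was 0.013.

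The 7 members that were not lower in TG run were Ndufc2, Uqcrfs1, Uqcrq, Cox6b2, Cox7a2l, Cox6a1 and Atp5b, with differences from 0.0051 for Cox6b2 to 0.17 for Cox6a1. By complex, 33 of 34 members of complex I, 3 of 3 of complex II, 6 of 8 of complex III, 12 of 15 of complex IV and 15 of 16 of complex V were below 0 in TG run. The medians were -0.14 in complex I, -0.11 in complex II, -0.078 in complex III, -0.085 in complex IV and -0.087 in complex V. In WT run the same medians were -0.017, 0.014, -0.015, -0.022 and -0.025. The differences between complexes were not tested. The 95% interval of the difference lay within ±0.5 log2 (a fold of 1.41) for 68 members in transgenic and 70 in wild-type mice, and within ±0.25 (a fold of 1.19) for 14 and 25.

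**Figure D1:**
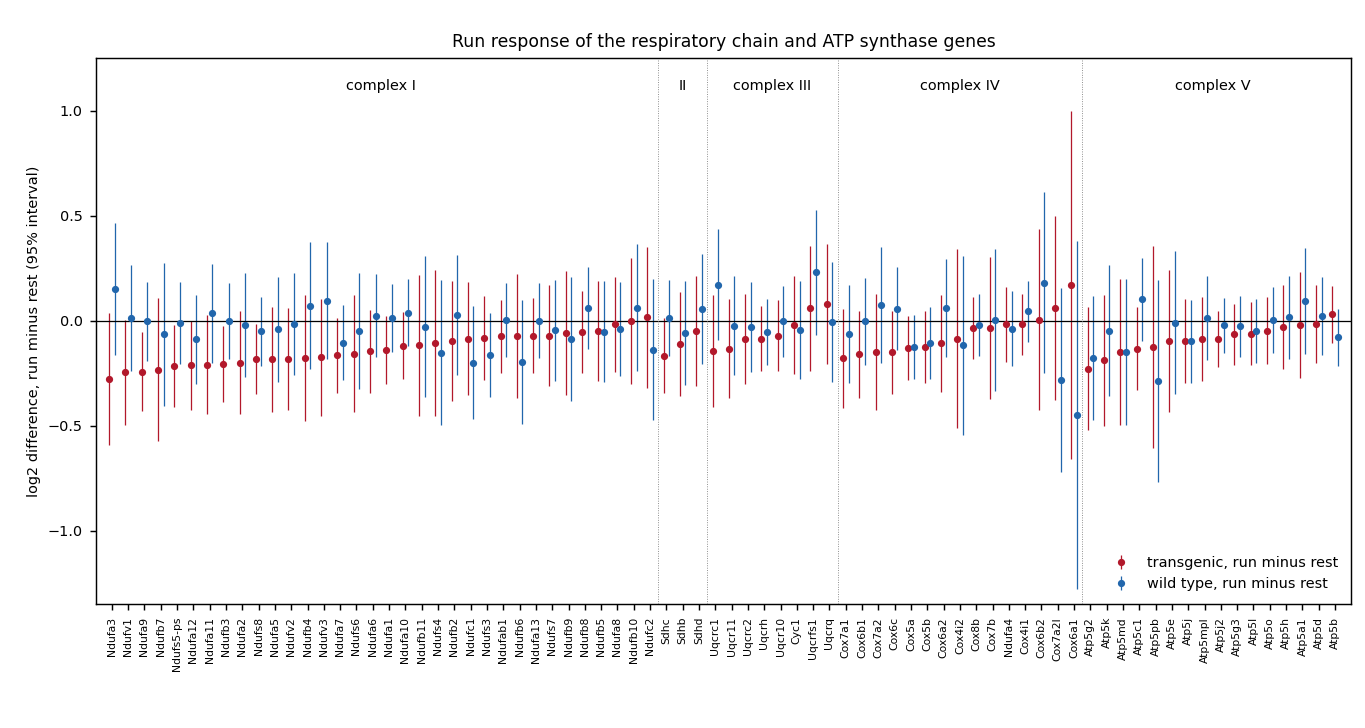
Log2 difference run minus rest (y axis) for each of the 76 genes (x axis, by complex and ordered by the transgenic value), in transgenic mice (red) and wild-type mice (blue), 6 arrays per group; bars are 95% intervals of the limma fit. In transgenic mice 69 of 76 points lie below 0, with a median of -0.096, against 48 and -0.021 in wild-type mice, and most intervals cross 0.

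The medians of the lymphocyte and slow fibre lists had opposite signs in TG run and WT run. The member medians were -0.096 and -0.021, and the sign of the WT value was not stable. The 10 lymphocyte markers were all higher in TG run than in TG rest (median 1.42) and all lower in WT run than in WT rest (median -0.36). The 13 slow fibre genes were lower in TG run in 11 cases (median -0.14) and higher in WT run in 13 (median 0.40). Among the other lists, the 7 neutrophil markers had a median of 1.32 in TG run and 0.019 in WT run, the 6 macrophage markers 0.50 and -0.17, and the 6 adipocyte markers 0.25 and -0.38. The 3 brown adipocyte markers had 0.098 and -1.01, the 3 erythroid markers -0.051 and 0.22, the 5 endothelial markers 0.19 and -0.0044, the 6 fast IIB fibre genes -0.019 and 0.0026, and the 1 cardiac gene kept -0.22 and 0.75. Over the 13 arrays low in lymphocyte markers (2 TG run, 4 TG rest, 4 WT run, 3 WT rest), the member median was -0.048 in TG run, with 50 of 76 below 0, and -0.052 in WT run, with 49 below 0. With both list means as covariates it was -0.050 and -0.028. Over the 14 arrays low in slow fibre genes it was -0.13 and -0.048. The part of these lists in the result was not tested beyond these values.

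Among complex I subunits, Ndufa9, an accessory subunit near the ubiquinone site, had the smallest p in transgenic mice. Its log2 signal (lowest, median and highest of 6 arrays) was 12.95, 13.03 and 13.24 in TG run, 13.17, 13.28 and 13.56 in TG rest, 13.08, 13.22 and 13.41 in WT run, and 13.07, 13.22 and 13.47 in WT rest. The TG run values were lowest and overlapped those of the other groups. Its difference was -0.24 in TG (SE 0.0914, limma adjusted p = 0.84) and -0.0033 in WT (SE 0.0914). On the 13 arrays low in lymphocyte markers the TG difference was -0.16 (SE 0.146). Ndufb3, an accessory subunit of the membrane arm, had 12.54, 12.69 and 12.89 in TG run and 12.79, 12.87 and 13.06 in TG rest, a difference of -0.21 (SE 0.0872, adjusted p = 0.84). Ndufs8, a core subunit that carries iron-sulphur clusters, had 12.85, 12.91 and 13.05 in TG run and 12.93, 13.09 and 13.33 in TG rest, a difference of -0.18 (SE 0.0802, adjusted p = 0.84). In all 3 genes the ranges of TG run and TG rest overlapped. The remaining member under an unadjusted p of 0.05 was Ndufs5-ps, at -0.22 (SE 0.0945). Ndufv1, the subunit that binds NADH, had a difference of -0.25 in TG (SE 0.121) and 0.013 in WT (SE 0.121).

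In wild-type mice the smallest p belonged to Ndufs3, a core subunit of the peripheral arm of complex I. It had 12.79, 12.99 and 13.07 in WT run and 12.94, 13.12 and 13.26 in WT rest, a difference of -0.16 (SE 0.0965, limma adjusted p = 1). Cox5a, a nuclear subunit of complex IV, followed with -0.13 (SE 0.0737, adjusted p = 1), and Uqcrfs1, near background, with 0.23 (SE 0.144, adjusted p = 1). Averaged over both genotypes, 66 of 76 members were below 0 with a median of -0.061 (all genes -0.002), and 0 were called (0.0133% of all genes); 4 passed an unadjusted p under 0.05, 5.26% against 3.98% of all genes. Cox5a led, with 14.22, 14.38 and 14.56 in TG run, 14.39, 14.55 and 14.59 in TG rest, 14.38, 14.39 and 14.51 in WT run, and 14.44, 14.54 and 14.67 in WT rest. It was thus lower in run than in rest in both genotypes, by a mean of -0.13 (SE 0.0521, adjusted p = 0.99), with overlapping groups. Next came the accessory subunits Ndufa7, at -0.13 (SE 0.0608), and Ndufa12, at -0.15 (SE 0.0725), both with an adjusted p of 0.99, and then Ndufs8, at -0.12 (SE 0.0567).

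Like all other members, the subunits of complexes II, III and V named next were not called in either genotype. Sdha, the catalytic subunit of complex II, is not among them because its probe was not detected. Sdhb, the iron-sulphur subunit of complex II, had a difference of -0.11 in TG (SE 0.12) and -0.059 in WT (SE 0.12), and its membrane anchors Sdhc and Sdhd had -0.17 and -0.049 in TG. Cyc1, the cytochrome c1 of complex III, had -0.020 in TG and -0.044 in WT (SE 0.113 each). Atp5a1 and Atp5b, the α and β subunits of the ATP synthase head, had -0.020 (SE 0.122) and 0.030 (SE 0.0656) in TG. In WT the same subunits had 0.094 and -0.079. For Atp5b the 95% interval ran from -0.11 to 0.17 in TG. Atp5b had the highest mean signal of the members (15.3), and quantile normalisation left the same value, 15.401, on several arrays. These were WT rest replicates 3 and 11 and TG run replicates 3 and 5. Whether normalisation narrowed its spread was not tested.

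Whether the run response differed between genotypes was tested as an interaction (the TG difference minus the WT difference). The member median was -0.075, with 59 of 76 below 0 (all genes -0.023), and 0 members were called (0% of all genes); 0 passed an unadjusted p under 0.05, against 2.35% of all genes. Over the 13 arrays low in lymphocyte markers the median was 0.024, with 34 below 0. The smallest p belonged to Ndufa3, an accessory subunit of complex I. It had 13.22, 13.29 and 13.51 in TG run, 13.43, 13.6 and 13.94 in TG rest, 13.23, 13.7 and 14.19 in WT run, and 13.22, 13.63 and 13.88 in WT rest. The TG run arrays were low and close together, at the lower end of the WT ranges. Its interaction was -0.43 (SE 0.215, limma adjusted p = 0.926). It was -0.29 (SE 0.145) with the slow fibre mean as a covariate, -0.29 (SE 0.146) with both list means, -0.41 (SE 0.28) on the 13 arrays low in lymphocyte markers, and -0.094 (SE 0.208) on the 14 arrays low in slow fibre genes, a subset chosen after seeing the data. Ndufa9 had -0.24 (SE 0.129) and Uqcrc1, a core protein of complex III, -0.32 (SE 0.182), with the same adjusted p. On the 13 arrays low in lymphocyte markers these were -0.11 (SE 0.194) and -0.14 (SE 0.253). An interaction beyond ±0.5 lay outside the interval for 50 of the 76 members.

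Between genotypes at rest, 57 of 76 members were higher in TG rest than in WT rest with a median of 0.053 (all genes 0.0083), a direction that turned to -0.026 with median scaling, where the median of all genes was -0.086, and to -0.026 with the replicate number as a block. None was called (0 of 76; 0.0734% of all genes, 11 genes, or 2 with the replicate block), and 0 passed an unadjusted p under 0.05, against 2.99% of all genes. Cox4i1, the widely expressed form of complex IV subunit 4, had 14.54, 14.7 and 14.79 in TG rest and 14.47, 14.54 and 14.72 in WT rest. Its difference was 0.13 (SE 0.0703), or 0.17 (SE 0.0719) without WT rest replicate 11, whose value lay apart, and 0.059 (SE 0.112) on the 13 arrays low in lymphocyte markers. Uqcrc1 and Cox7a1 followed with 0.24 (SE 0.128) and 0.17 (SE 0.113), and limma's adjusted p was 0.999 for all 3. With the replicate block the 3 differences were 0.085 for Cox4i1, 0.12 for Uqcrc1 and 0.022 for Cox7a1. After the run, 51 of 76 were lower in TG run than in WT run with a median of -0.042 (all genes -0.0069), and again 0 were called (0.0868% of all genes). Ndufa3 had -0.38 (SE 0.152, adjusted p = 0.998), Ndufs8 -0.14 (SE 0.0802) and Ndufa9 -0.15 (SE 0.0914). On the 13 arrays low in lymphocyte markers Ndufa3 had -0.48 and Ndufa9 -0.046, and on the 14 low in slow fibre genes they had -0.14 and -0.11. Ndufa3 was the 1 member under an unadjusted p of 0.05, where 3.11% of all genes were. Averaged over both states, 41 of 76 were higher in TG, with a median of 0.0044. Under median scaling it was -0.072, where the median of all genes was -0.036. Here too 0 were called (0.24% of all genes), and 0 passed an unadjusted p under 0.05, against 3.24% of all genes. The smallest p-values were those of Cox4i1 at 0.10 (SE 0.0497), Ndufa3 at -0.17 (SE 0.107) and Cox7a1 at 0.11 (SE 0.0802), each with an adjusted p of 1. With the replicate block Cox7a1 turned to -0.0088 (SE 0.0984), Cox4i1 had 0.047 (SE 0.0722), and 5 genes were called in place of 36.

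Complex IV has subunits with tissue forms, and each was set against its partner within the same array, so that only the change in the difference between groups counts. Cox6a1 (liver form) minus Cox6a2 (heart and muscle form) changed by 0.28 in TG run against TG rest (SE 0.488) and by -0.51 in WT run against WT rest (SE 0.488). For Cox7a2 (liver form) minus Cox7a1 (heart and muscle form) the changes were 0.030 and 0.14 (SE 0.0985 each). Cox7a2l, a factor that joins complexes III and IV into supercomplexes, minus Cox7a1 changed by 0.24 and -0.22 (SE 0.228 each). Cox4i2 (lung form) minus Cox4i1 changed by -0.068 and -0.16 (SE 0.199 each), and Cox6b2 minus Cox6b1 by 0.16 and 0.18 (SE 0.205 each). All these 95% intervals included 0. Cox8b, the heart and muscle form of subunit 8, ranged from 14.87 to 15.24 in TG run, 15.07 to 15.14 in TG rest, 15 to 15.22 in WT run and 15.03 to 15.21 in WT rest, and Ndufa4 lay between 14.57 and 15 in all groups.

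The members moved together from array to array. The mean of the 76 was 12.7 ± 0.115 in TG run, 12.8 ± 0.0587 in TG rest, 12.73 ± 0.0666 in WT run and 12.76 ± 0.114 in WT rest (mean ± SD, n = 6), and the 4 groups overlapped. Over deviations from the group means on 24 arrays, 46 of 76 members (60.5%) had a Pearson correlation above 0.5 with the mean of the other members, 4 (5.26%) were below 0, and the median was 0.532. Of all genes, 14.3% correlated above 0.5 with the mean of the 76 and 41% below 0. Highest were Ndufa1 (0.92), Cox7a1 (0.907), Ndufb7 (0.882), Ndufs5-ps (0.88) and Cox7a2 (0.816). Lowest were Cox6a1 (-0.371), Cox7a2l (-0.128), Uqcrfs1 (-0.042), the ATP synthase γ subunit Atp5c1 (-0.009) and Ndufa10 (0.029). These points share arrays and their normalisation, so the values describe the arrays. A pair of principal components held 35.6% and 28% of the members' variance within groups.

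On the 11 arrays high in lymphocyte markers the member mean was 12.68 ± 0.0783 (12.53 to 12.81), and on the 13 low arrays it was 12.81 ± 0.0591 (12.69 to 12.9). Over all groups together, 71 of 76 members were lower on the high arrays with a median difference of -0.15, against 9167 of 14984 genes and a median of -0.078. All 34 complex I members were on the lower side. Of related lists, 68 of 71 mitochondrial ribosome genes (median -0.165) and 32 of 40 assembly factors (-0.185) were lower too, and 4 of 8 mitochondrially encoded subunits (0.013). The high arrays also had all 13 slow fibre genes lower (-0.70). All adipocyte (0.50), brown adipocyte (2.12) and neutrophil (1.26) markers were higher on them. Lymphocyte signal and these other lists cannot be told apart in this split. Over deviations from the group means on 24 arrays, members and lymphocyte list correlated at r = -0.779 (rho = -0.746). From the array means themselves, with groups mixed, r was -0.793 inside the 11 high arrays (rho = -0.745, and r = -0.525 without the 2 arrays farthest out). Inside the 13 low arrays it was 0.508 (rho = 0.489, and r = 0.727 without 2).

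**Figure D2:**
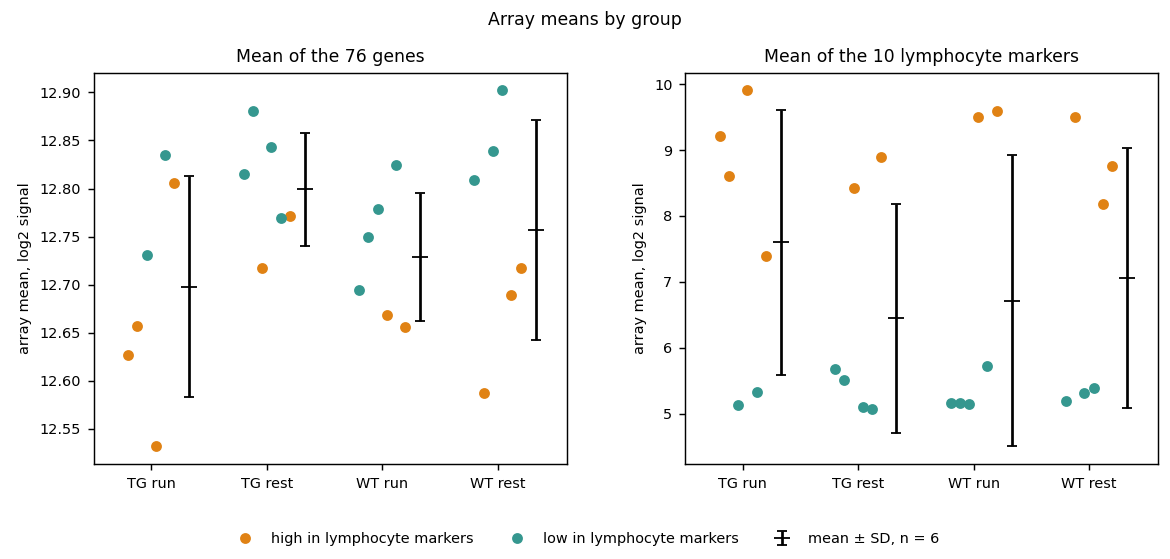
Left, mean log2 signal of the 76 genes on each array; right, mean of the 10 lymphocyte markers; x axis, the 4 groups; orange points are the 11 arrays high in lymphocyte markers, green points the 13 low ones, and black bars give mean ± SD (n = 6). The member mean on orange arrays was 12.68 ± 0.0783, and on green arrays 12.81 ± 0.0591.

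The members also varied with the slow fibre list, in both directions. Of the 76 members, 31 (40.8%) correlated above 0.5 with the mean of the slow fibre genes and 5 (6.58%) below -0.5 (24 arrays, deviations from the group means), against 31.3% and 21.2% of all 14984 genes. As a set the members lay close to all genes: on the 10 arrays high in slow fibre genes 41 of 76 were higher than on the 14 low ones, with a median difference of 0.040, against 8402 of 14984 genes and a median of 0.058. Cox6a2 (r = 0.933, rho = 0.926) and Ndufa3 (r = 0.79, rho = 0.821) were among those that moved with it, while Cox6a1 (r = -0.865, rho = -0.867), Cox7a2l (r = -0.849, rho = -0.85) and Atp5pb, the b subunit of the ATP synthase stalk (r = -0.709), moved against it. Without the 2 arrays farthest out, r was 0.917 for Cox6a2, 0.768 for Ndufa3, -0.825 for Cox6a1 and -0.884 for Cox7a2l. Cox6a1 also followed the adipocyte list (r = 0.907) and Cox6a2 went against it (r = -0.802). Cox7a1 followed neither list (r = 0.13 and -0.152). The 10 arrays high in slow fibre genes also differed from the 14 low ones in other lists. All markers were lower on them in the lymphocyte (median -1.61), adipocyte (-0.67), brown adipocyte (-1.34), neutrophil (-1.27) and macrophage (-0.72) lists. Of the 6 fast IIB fibre genes 5 were higher (median 0.16). Slow fibre content and these other lists cannot be told apart in this split.

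Cox6a1 varied most of all complex IV members, with a residual SD of 0.738 within groups, against 0.0791 for Cox4i1. It had 10.78, 11.48 and 12.13 in TG run, 10.33, 11.26 and 12.58 in TG rest, 10.25, 11.12 and 12.67 in WT run, and 10.7, 11.71 and 12.46 in WT rest. Each group thus held both low and high arrays. On the 10 arrays high in slow fibre genes Cox6a1 was 10.76 ± 0.441, against 11.85 ± 0.473 on the 14 low arrays. Cox7a2l ranged from 11.03 to 11.61 on the high arrays and from 11.75 to 12.15 on the low ones, with no overlap. Atp5pb ranged from 11.89 to 12.69 on the high arrays and from 12.76 to 13.17 on the low ones, again with no overlap. These were the 2 members without overlap (2.63%), against 7.25% of all genes. In the other direction, Cox6a2 was 15.22 ± 0.0892 on the high arrays and 14.95 ± 0.126 on the low ones, and Ndufa3 13.79 ± 0.231 and 13.4 ± 0.191. The lists of markers were chosen with these data known, and the arrays were split at a gap in the data, so no test is given.

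**Figure D3:**
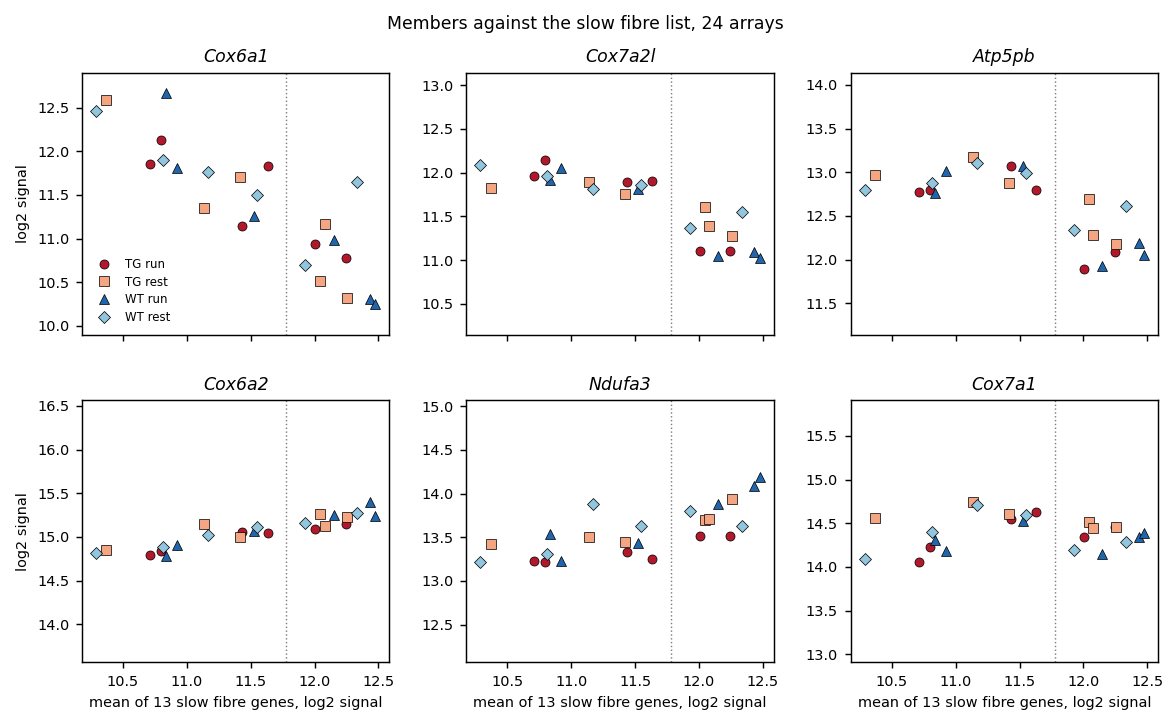
Log2 signal (y axis, 3 log2 units in every panel) of 6 genes against the mean of 13 slow fibre genes (x axis) on 24 arrays; symbols mark the 4 groups and the dotted line the gap between 11.63 and 11.93. Cox6a1, Cox7a2l and Atp5pb are lower to the right of the line, Cox6a2 and Ndufa3 higher, and Cox7a1 shows no such order (r = 0.13).

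Over deviations from the group means on 24 arrays, the member mean correlated with the slow fibre list at r = 0.353 (rho = 0.294). From the array means themselves, with groups mixed, r was -0.818 within the 13 arrays low in lymphocyte markers (rho = -0.813, and r = -0.697 without 2 arrays). Within the 11 high ones it was 0.334 (rho = 0.427, and r = 0.39 without 2). In the other complexes, the largest residual SD belonged to Ndufs4 in complex I (0.294), an accessory subunit that stabilises the NADH end. It was Sdhd in complex II (0.211), Uqcrfs1 in complex III (0.246) and Atp5pb in complex V (0.419). The smallest were Ndufa10 (0.0969), Sdhc (0.124), Uqcrh (0.0946) and Atp5j2 (0.0569). How far the residual SD depends on the signal level was not tested, and Atp5j2 had a mean signal of 15.09.

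**Figure D4:**
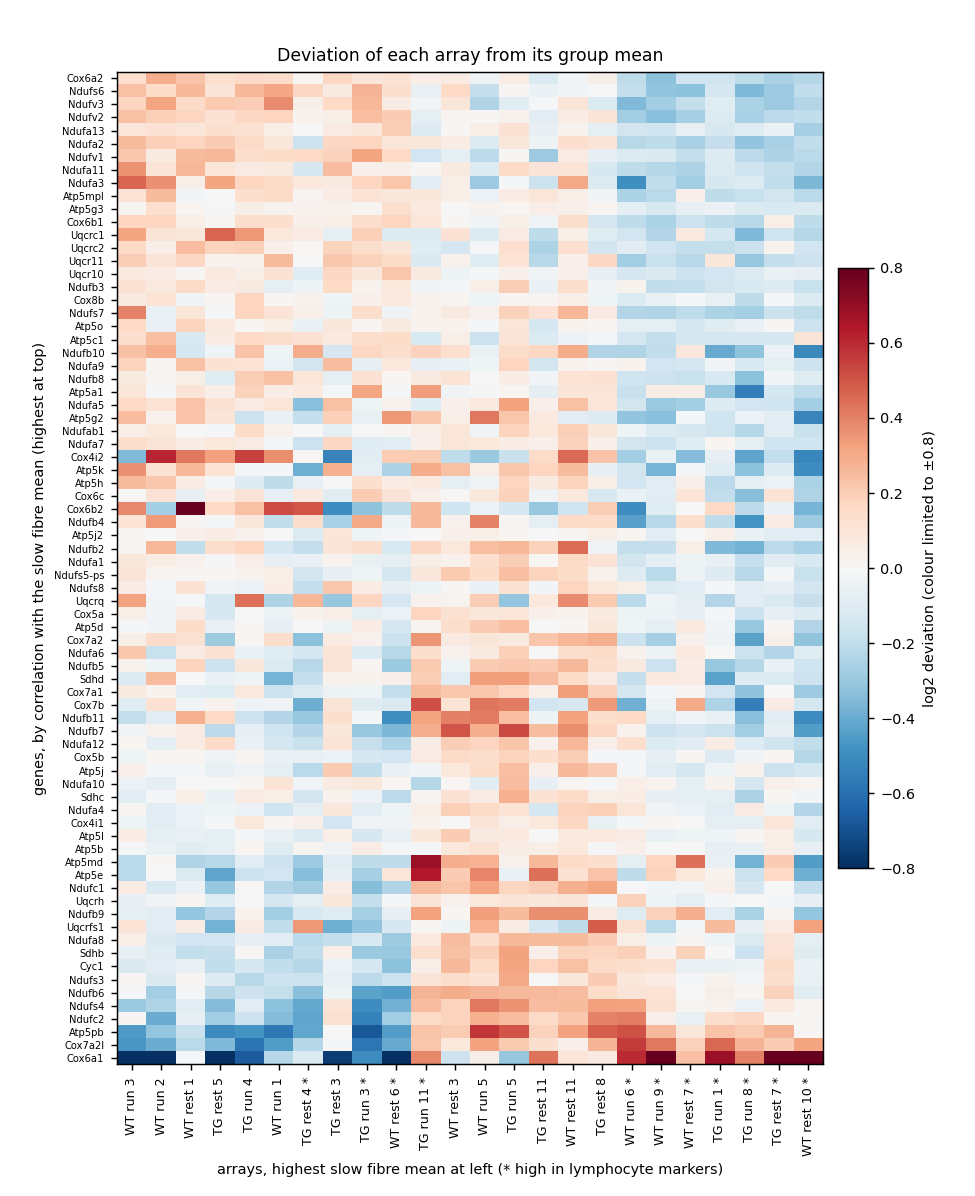
Deviation of each array from its group mean in log2 units (colour, limited to ±0.8) for the 76 genes (rows, by their correlation with the slow fibre mean) on 24 arrays (columns, highest slow fibre mean at left; a star marks the 11 arrays high in lymphocyte markers). The 10 left columns are the arrays high in slow fibre genes, where the lowest rows, Cox6a1, Cox7a2l and Atp5pb, are mostly blue and the top row, Cox6a2, mostly red; columns at the right are blue in most of the upper rows.

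Different probes of a gene gave a check on these values. Of the 76 members 25 had a second kept probe, which correlated with the brightest probe above 0.5 in 18 and below 0 in 3, with a median of 0.693. The pair for Cox6a1 correlated at 0.994, and both moved against the slow fibre list (-0.865 and -0.852). For Atp5pb the second probe correlated at 0.97, but its dimmest probe at -0.551, and that probe moved with the slow fibre list (0.864). In Ndufs4, the second probe had a correlation of 0.33 with the slow fibre list where the brightest had -0.552. The 3 members with a negative value were Ndufs6 (-0.451), Ndufb8 (-0.148) and Atp5o (-0.079). In the run response, the second probe had the same sign as the first in 20 of 25 members in TG and 19 of 25 in WT. Its median was -0.099 in TG and -0.058 in WT.

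Genes that build, feed or regulate the respiratory chain were examined as related lists, and 0 of their members were called in the run contrast of either genotype or in their mean, by limma. The 40 assembly factors had a median of -0.11 in TG run, with 37 below 0, and -0.022 in WT run with 22 below 0. The 71 mitochondrial ribosome genes had -0.084 with 60 below 0, and -0.019 with 37. For the 16 genes of the tricarboxylic acid cycle the values were -0.20 with 15 below 0, and 0.029 with 6. For the 18 of fatty acid oxidation they were -0.20 with 18 below 0, and 0.016 with 7. The 8 respiratory subunits encoded in mitochondrial DNA had -0.030 with 5 below 0, and 0.020 with 4, and the 9 carriers and inhibitors of the inner membrane -0.088 with 7, and 0.034 with 4. The 17 regulators of mitochondrial biogenesis had -0.074 with 12 below 0, and 0.092 with 5. At an unadjusted p under 0.05 there were, in the same order, 3 (7.5%), 1 (1.41%), 5 (31.2%), 2 (11.1%), 0, 0 and 2 (11.8%) genes in TG run, against 4.76% of all genes. In WT run there were 0 in the first 5 lists, 1 (11.1%) among the carriers and inhibitors and 2 (11.8%) among the regulators, against 2.15% of all genes.

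Ppargc1a, which encodes the coactivator PGC-1α, had the smallest p among these lists. Its signal was higher after the run by 1.03 in TG (SE 0.29) and 1.21 in WT (SE 0.29), a mean of 1.12 (SE 0.205) that missed the threshold over all genes (limma adjusted p = 0.078). In the same mice Ppargc1b had -0.45 in TG and -0.16 in WT, and the corepressor Nrip1 0.046 and 0.64. The other genes with the smallest p in each list, by the mean run difference, were as follows. Tmem126b (-0.26, SE 0.0754), Cox17 (-0.14, SE 0.0562) and Sdhaf3 (-0.13, SE 0.0855) are assembly factors. Suclg2 (-0.20), Dld (-0.15) and Fh1 (-0.094) belong to the tricarboxylic acid cycle, and Etfb (-0.17), Echs1 (-0.13) and Acadm (-0.092) to fatty acid oxidation. The ribosomal Mrpl14, Mrps23 and Mrps21 had -0.14, -0.12 and -0.13, the mitochondrial ND4L, ATP6 and ND1 had -0.22, 0.040 and -0.034, and the carriers Slc25a3, Ucp3 and Slc25a12 had -0.13, 0.21 and -0.12. Adjusted p-values of all these other genes were 0.554 or higher. Across arrays, the member mean correlated with the list means at 0.91 for assembly, 0.905 for the mitochondrial ribosome, 0.831 for carriers, 0.668 for mitochondrially encoded genes, 0.273 for the tricarboxylic acid cycle, 0.126 for the biogenesis regulators and 0.118 for fatty acid oxidation (24 deviations from group means, same arrays and normalisation).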

How the data were processed

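Gene expression was measured on 24 Illumina mouse bead arrays, 6 per group, from biotinylated cRNA, per the labels' protocols. Signal intensities were deposited without normalisation between arrays, each with a detection p-value, per the file headers. The submitters also deposited log2 values (R 3.1.1 and limma 3.20.8, per the submitters' processing notes), which differed from the values computed here by at most 0.0269 and served as an alternative. No label or header names slides, scan dates or the software that summarised the beads, and slide was not fitted as a block.

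Background correction and quantile normalisation used neqc (limma 3.58.1, R 4.3.3, offset 16, using the detection p-values). Probes with a detection p under 0.05 on at least 6 arrays were kept (21788 of 45281), and the brightest of a symbol's probes stood for it, which gave 14984 genes. All genes were fitted with 4 group means (lmFit and eBayes), two-sided, with Benjamini-Hochberg adjustment over the 14984 genes and a threshold of 0.05. P-values rest on the spread between the 6 samples within each group, pooled per gene over the 4 groups and moderated by eBayes. The number of arrays limits the precision. The fit was run on simulated data with independent noise for each gene, which lack the shared variation between arrays seen here.

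The members, lists, tests and alternatives were chosen with earlier results of these data known. Genes named were called members, or the 3 with the smallest p where none was called, tissue forms and Ndufa4, core subunits, those with extreme residual SD or extreme correlation to the other members, and 3 genes per related list. Those printed as deviating on single arrays, those not lower in transgenic mice, Ndufs5-ps and the members with discordant probes were named after their values were seen. Promoter windows came from RefSeq (GRCm38.p6), matched by symbol or gene ID.

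Replicate numbers shared by 2 groups were taken to pair arrays where, for every shared number, the arrays' deviations from their group means correlated above 0.1. This held only for genotype at rest (0.347, 0.412 and 0.687). The replicate block is given beside results there, and for the mean genotype difference, which includes that contrast. The block was fitted over the arrays of all groups, so it was not a pairing of the rest groups alone. It also tied arrays whose shared numbers failed the rule, with correlations between TG run and WT run from -0.596 to 0.615. Alternatives changed the normalisation, background correction, probe filter, probe choice, block, array weights, covariates and arrays used.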

Additional observations from a re-analysis of the deposited data

Results flagged for a closer look

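Single arrays were compared with the other arrays of their group for the mean of all members and for single members (38 in all), in 152 groups of 6. The measure was the gap to the nearest array over the group's range (Dixon's ratio), which chance passes in about 1 group in 20. In 4 of the 152 groups an array lay apart. Cox4i1 was 14.72 on WT rest replicate 11, with the other 5 arrays between 14.47 and 14.55. Cox6b2, near background, was 5.96 on WT rest replicate 1 and 4.69 to 5.06 on the others. Ndufa10 was 13.1 on WT rest replicate 7 and 13.18 to 13.2 on the others. Atp5j2, a membrane subunit of ATP synthase, was 14.99 on WT run replicate 9 and 15.08 to 15.12 on the others.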

How the results depend on the processing

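No member was called in any contrast fitted under the 14 alternative settings or with any single array left out. The setting with only the groups compared was fitted for the run within each genotype and the genotypes within each state, not for the other contrasts. Settings that changed the probe filter also changed the member set, to 74 members when detection on all arrays was required. The member median for TG run minus TG rest stayed below 0 throughout (leaving out arrays, -0.14 without TG run replicate 5 to -0.072 without TG run replicate 8), as did that of the mean run difference (-0.078 to -0.043). Leaving out arrays moved the others within -0.053 to 0.013 (run in wild type), -0.11 to -0.043 (interaction), 0.0082 to 0.077 (genotype at rest), -0.062 to -0.0029 (genotype after the run, the upper value without TG run replicate 8) and -0.013 to 0.020 (mean genotype). The interaction median was 0.024 on lymphocyte-low arrays. Cox7a1's mean genotype difference turned to -0.0088 with the replicate block.

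Counts of all genes called moved more. For the run in wild type, 0 became 2 with array weights. For the run in transgenic mice, 1 became 0 with median scaling, the replicate block, only the groups compared, lymphocyte-low arrays or slow fibre-low arrays, and 6 with the slow fibre covariate or both covariates. For the mean run difference, 2 became 5 with array weights, 26 with the slow fibre covariate, 9 with the lymphocyte covariate, 35 with both, and 0 on either subset of arrays. For genotype at rest, 11 became 4 (detected on all arrays), 2 (replicate block), 7 (only the groups compared), 18 (both covariates), 3 (lymphocyte-low) and 2 (slow fibre-low). For genotype after the run, 13 became 8, 2, 6, 29, 2 and 2 in the same order, and 25 with the slow fibre covariate. For mean genotype, 36 became 5 (replicate block), 71 (slow fibre covariate), 59 (lymphocyte covariate), 107 (both), 11 (lymphocyte-low) and 4 (slow fibre-low). Leaving out arrays gave 0 to 1, 0 to 1, 2 to 4, 6 to 11, 6 to 16 and 28 to 40 in these contrasts, and 0 for the interaction. Subsets hold fewer arrays (13 and 14) and the block fewer degrees of freedom; other causes were not tested.

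The split at the widest gap of the slow fibre mean left 2 low arrays and could not be fitted; the split into 10 and 14 arrays was chosen after seeing the data. Signals near background limit Uqcrfs1 and Cox6b2, and Ndufs1 and Sdha have no level here.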
